A study of Drosophila melanogaster with 35 samples.

Results

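A set of 113 transcripts, of 15473 measured in Drosophila melanogaster wings, had declining mean levels at both steps of a 3-stage series in control animals, and it is described here in control wings and in wings carrying extra E2F1 and DP or extra Cabut. The members were selected on mean log2 intensity per group: a control level of at least 8 at the last larval stage, a control mean lower by at least 1 log2 unit from that stage to 24h after pupa formation, and a further drop of at least 1 from 24h to 36h. A difference of 1 log2 unit is a 2-fold change in intensity. The selection also required an E2F1DP level less than 1 above control at the larval stage and a Cabut level within 0.8 of control at 24h or at 36h. The control level left 9091 transcripts, the first drop 1443, the second 221, the E2F1DP bound 220 and the Cabut bound 113. Their decline in control wings is therefore the criterion and not a finding.

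RNA came from dissected wings of 3 fly lines at the wandering stage of the last larval instar (L3) and in pupae aged 24h and 36h, with 10 wings pooled in each sample. The line called E2F1DP carried UAS-dE2F1 and UASdDP, the line called Cbt carried UAS-Cabut, and the control line had no additional UAS transgene. All 9 groups shared the apterous-gal4 driver, a UAS-GFP reporter and the tubulin-Gal80temp.sens. repressor, and all were moved from a cool to a warm, permissive temperature, the control line included. The E2F1DP group at L3 had 3 arrays, since 1 sample failed the submitters' quality control, and every other group had 4 arrays from independently isolated samples.

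E2F1 is the activating E2F protein of the fly and binds DNA together with its partner DP; the pair switches on genes for entry into and passage through the DNA synthesis phase. Cabut is a zinc finger transcription factor related to the mammalian Krüppel-like factors. Wing cells proliferate in the larva, divide for the last time in the pupa, and then differentiate into the adult wing blade, so that transcripts of the larval disc give way to those of the pupal wing. The apterous driver acts in dorsal wing cells, and ventral cells of the same wing carry the transgene without the driver being active, so each value mixes both. In such bulk RNA a lower level may mean fewer cells that make a transcript or less of it per cell, and these cannot be told apart.

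The files name features by FlyBase transcript ID alone. None of the 113 IDs appeared in the gene table at hand, so no gene name, function or sequence is given, and the planned gene lists and cell type markers could not be looked up. Array medians over all transcripts lay between 9.25 and 10.02 on the log2 scale. Replicate 3 of control wings at 24h and replicate 3 of E2F1DP wings at 24h stood apart from their groups: the SD of their deviations from the group means over all transcripts was 0.655 and 0.682, against 0.184 to 0.526 on the other arrays. Counts of members called in the comparisons that use them are also given without them, but not every count drawn from those calls. Arrays also share numbers in their file names, taken here as slide numbers, although the labels do not state what these numbers are.

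The members were abundant at L3 in all 3 lines and then separated by line. In E2F1DP wings the median member stood at 11.73 in larvae, 10.93 at 24h and 9.75 at 36h. In Cbt wings it stood at 11.81, 10.21 and 8.81 at the same stages. In control wings it stood at 11.89, 9.90 and 8.45. The median of all 15473 transcripts stayed between 9.55 and 9.87 in the 9 groups, so the members began well above the typical transcript, ended below it in Cbt and control wings, and ended at about its level in E2F1DP wings. The selection helps to fix the high start and the low end in control and Cbt wings.

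The difference between E2F1DP and control wings was also seen array by array, taking the median of the 113 on each. At L3 the arrays had 11.71, 11.68 and 11.77 in E2F1DP wings, 11.90, 11.84, 11.71 and 11.94 in Cbt wings, and 11.78, 11.90, 11.99 and 11.89 in control wings. At 24h they had 11.20, 11.08, 11.02 and 10.49 in E2F1DP wings, 10.35, 10.47, 10.32 and 9.61 in Cbt wings, and 9.87, 10.11, 9.66 and 10.22 in control wings. At 36h they had 9.70, 9.54, 9.51 and 9.94 in E2F1DP wings, 8.92, 8.85, 8.52 and 8.94 in Cbt wings, and 8.57, 8.64, 8.11 and 8.53 in control wings. Every E2F1DP array lay above every control array at 24h and at 36h, while at L3 all 3 E2F1DP arrays lay below the lowest control array. The ranges of Cbt and control arrays overlapped at all 3 stages. The mean of the array medians at 36h was 9.67 ± 0.20 in E2F1DP wings, 8.81 ± 0.20 in Cbt wings and 8.46 ± 0.24 in control wings (SD, n = 4 each). Because control arrays at all stages, and Cbt arrays at both pupal stages, helped to choose the members, these differences are a description and carry no test.

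**Figure D1:**
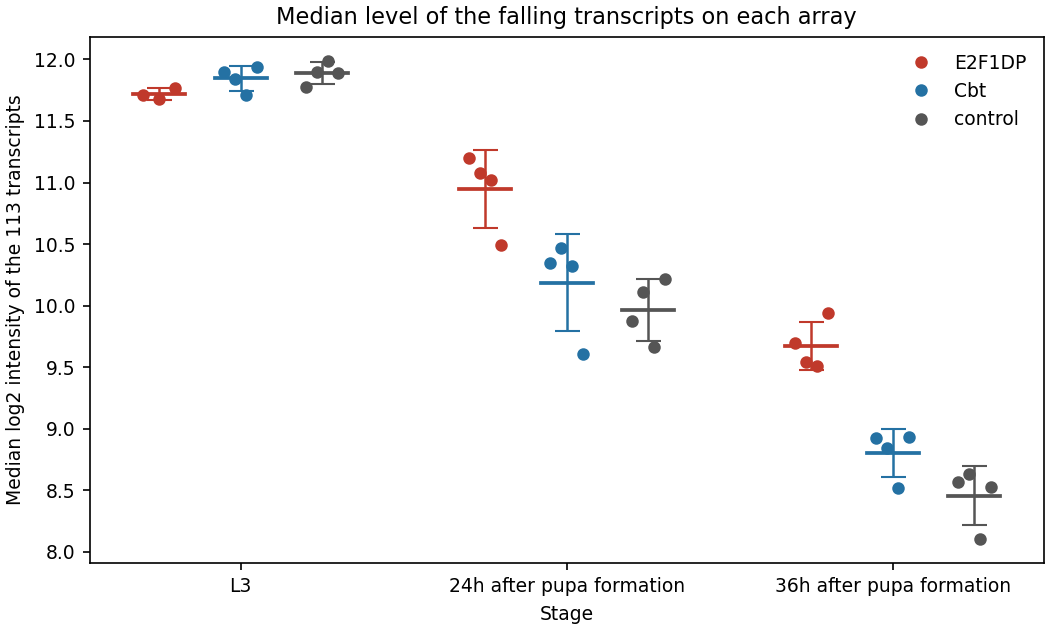
Median log2 intensity of the 113 transcripts on each array, by stage (x axis) and line (colour). Points are arrays, wide bars the group means and whiskers ± 1 SD; the 4 E2F1DP arrays at 24h lie between 10.49 and 11.20 and the 4 control arrays between 9.66 and 10.22.

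**Figure D2:**
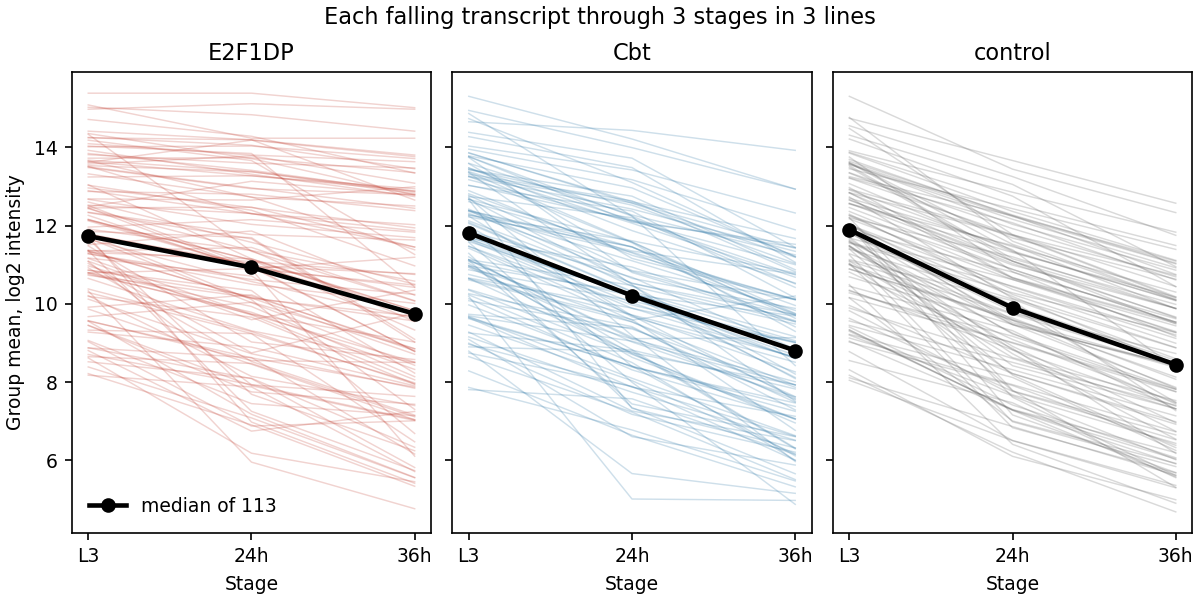
Group mean log2 intensity (y axis) of each of the 113 transcripts at L3, 24h and 36h, with 1 panel for each line. Thin lines are transcripts and the heavy line is their median; it ends at 9.75 in E2F1DP wings, 8.81 in Cbt wings and 8.45 in control wings.

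Members differed widely in how far they dropped in control wings. The control change from L3 to 36h had a median of -3.10 and ran from -6.88 to -2.07, with a median of -1.59 for the first step and -1.31 for the second. FBtr0082759 had the largest control drop: its 4 arrays read 12.21, 12.26, 12.17 and 12.14 in larvae, 6.83, 7.44, 9.45 and 7.45 at 24h, and 5.52, 5.37, 4.72 and 5.66 at 36h. The control arrays of the 3 stages did not overlap for it, and it was also low in E2F1DP wings at 36h, at 5.20, 5.32, 5.16 and 5.99. Cbt wings kept more of it at that stage, with 7.41, 6.92, 7.45 and 7.23. The bounds cut through a continuum. The member nearest to the first bound changed by -1.001 in control wings and the nearest transcript outside by -0.996, the second bound lay between -1.02 and -0.994, and the level bound between 8.05 and 7.83.

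In 1 comparison neither group was used to choose the members, namely E2F1DP wings at 36h against E2F1DP wings at 24h. It asks whether the transcripts that drop in control wings also drop late in wings with extra E2F1 and DP. The model took its spread from all 35 arrays, including those that chose the members. Of the 113, 57 fell, 1 rose and 55 did not pass, at a limma p under 0.05 after Benjamini-Hochberg adjustment across all transcripts. Members that fell made up 50.4%, against 6.73% of all transcripts called lower, and the member that rose made up 0.885%, against 9.18% of all called higher. The median change was -0.89 over the members and -0.03 over all transcripts. A lower mean at 36h was found for 107 members and for 52.9% of all transcripts. The falls that passed ran from -0.37 to -4.77 with a median of -1.46, and 44 of the 57 were of at least 1 log2 unit. For 50 members every array at 36h lay below every array at 24h, which held for 8.14% of all transcripts. On the 1 numbered slide that carried an array of each group, 106 of the 113 were lower at 36h, with a median difference of -0.98 against 0.02 over all transcripts. Replicates were separately isolated samples of pooled wings, so the p-values measure the spread between such pools. With the 2 compared groups fitted alone, 45 of the 113 were called lower and 1 higher. The share of all transcripts called in that fit was not counted. The comparison is not wholly separate from the selection: E2F1DP arrays at 24h deviated from their group mean together with the same-numbered control arrays at 24h, which the selection used, with correlations over all transcripts of 0.306, 0.323, 0.734 and 0.457. The pair with 0.734 is the replicate 3 pair that stood apart. Fitted without those 2 arrays, 58 of the 113 were called lower and 1 higher, against 7.51% and 7.63% of all transcripts.

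**Figure D3:**
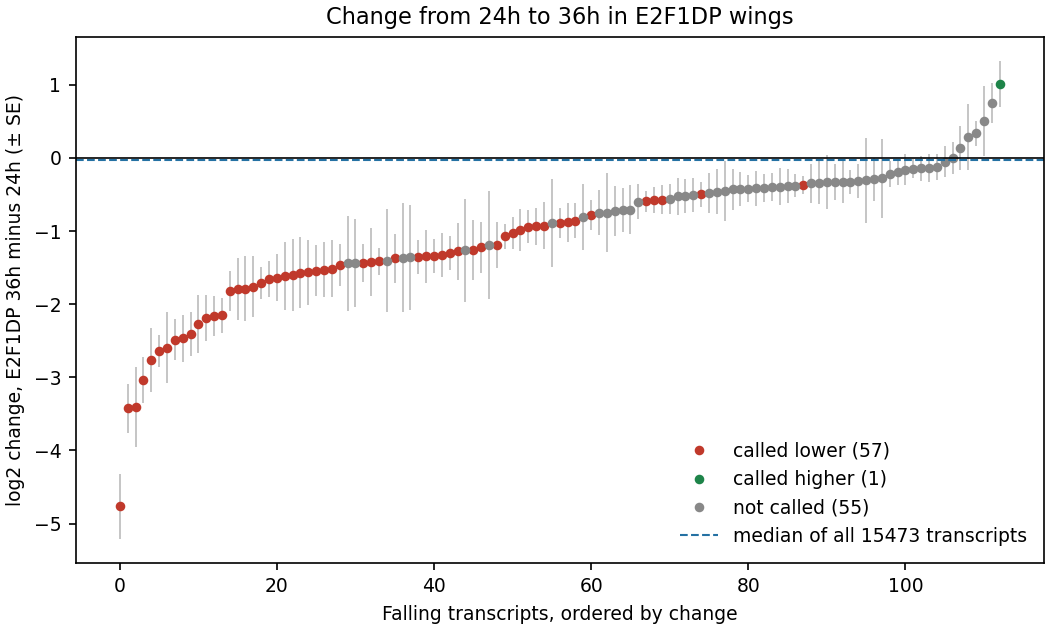
Log2 change of each member in E2F1DP wings, 36h minus 24h (y axis, bars ± SE of the linear model), with members ordered by change on the x axis. Red points are the 57 that fell, the green point the 1 that rose and grey points the 55 that did not pass; the dashed line is the median of all transcripts, -0.03.

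The 2 members with the deepest late falls in E2F1DP wings were FBtr0075621 and FBtr0076909. FBtr0075621 read 6.05, 5.65, 5.66 and 7.08 in E2F1DP wings at 36h, against 11.56, 11.25, 11.24 and 9.45 at 24h. Its groups did not overlap, and it fell by 4.77 ± 0.44 (SE), with an adjusted p of 3.61e-09. In control wings most of its decline came before 24h: the arrays there read 6.82, 8.20, 6.28 and 7.35 at 24h, against 11.33, 12.35, 12.27 and 12.05 at L3. At 36h its mean was 6.11 ± 0.67 in E2F1DP wings, 5.97 ± 0.41 in Cbt wings and 5.69 ± 0.30 in control wings (SD, n = 4 each), so the 3 lines reached levels whose arrays overlapped. FBtr0076909 read 6.04, 7.23, 6.82 and 6.66 in E2F1DP wings at 36h, against 10.27, 10.38, 10.52 and 9.27 at 24h. It fell by 3.42 ± 0.34 (SE), with an adjusted p of 8.78e-09 and no overlap between the stages. By group means its first drop was deepest in Cbt wings, from 12.66 at L3 to 7.33 at 24h, against 11.61 and 8.18 in control wings. The Cbt mean was thus also the higher of the 2 at L3. At 24h it read 7.10, 7.91, 7.48 and 6.85 in Cbt wings and 8.23, 7.52, 9.10 and 7.88 in control wings, and these arrays overlapped.

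The single member that rose was FBtr0087512, named after its values were seen. It read 9.92, 9.53, 9.56 and 10.05 in E2F1DP wings at 36h, against 9.12, 8.50, 8.74 and 8.63 at 24h, and every late array lay above every earlier one. It rose by 1.02 ± 0.31 (SE), with an adjusted p of 0.0245. The call was lost with the slide number as a term (adjusted p = 0.323), with quantile normalization (0.0622), and without any of 3 single arrays. Its control arrays at 36h were spread from 8.32 to 10.21, which spans the whole E2F1DP range at that stage, and its Cbt mean was also higher at 36h than at 24h, by 0.62. The member next to it in size, FBtr0080894, read 9.70, 10.58, 10.24 and 10.87 in E2F1DP wings at 36h, against 10.11, 9.29, 9.55 and 9.44 at 24h. Its change of 0.75 ± 0.27 (SE) did not pass, with an adjusted p of 0.0571. Its E2F1DP mean was 11.09 at L3, 9.595 at 24h and 10.35 at 36h, and the first of these steps was called lower. At 36h its level was far lower in the other lines, at 7.81, 7.18, 7.54 and 7.99 in Cbt wings and 7.55, 8.28, 7.11 and 6.96 in control wings.

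Set against control wings of the same age, E2F1DP wings held most members at a higher level. These counts share the control arrays with the selection and describe the members only. At 24h, 64 members were called higher, against 12.4% of all transcripts, and 2 lower, against 14.6%. At 36h, 72 were called higher, against 12.3% of all transcripts, and 1 lower, against 11.3%. The median difference was 1.02 at 24h and 1.12 at 36h, with a range from -1.87 to 3.71 at 24h and from -1.55 to 3.79 at 36h. Of the 113, 54 were higher at both stages, 10 at 24h only, 18 at 36h only and 31 at neither, or 47.8%, 8.85%, 15.9% and 27.4%. Over all transcripts the same patterns took 7.39%, 5%, 4.94% and 82.7%. Without the 2 arrays that stood apart, 55 of the 113 were called higher than control at 24h and 4 lower, against 11.5% and 13.9% of all transcripts. Arrays of the 2 lines did not overlap, with E2F1DP above, for 55 members at 24h and 72 at 36h, against 9.43% and 14.5% of all transcripts. On the numbered slides that held both lines the median difference was 0.86 and 0.90 at 24h, and 1.08 on the 1 such slide at 36h.

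**Figure D4:**
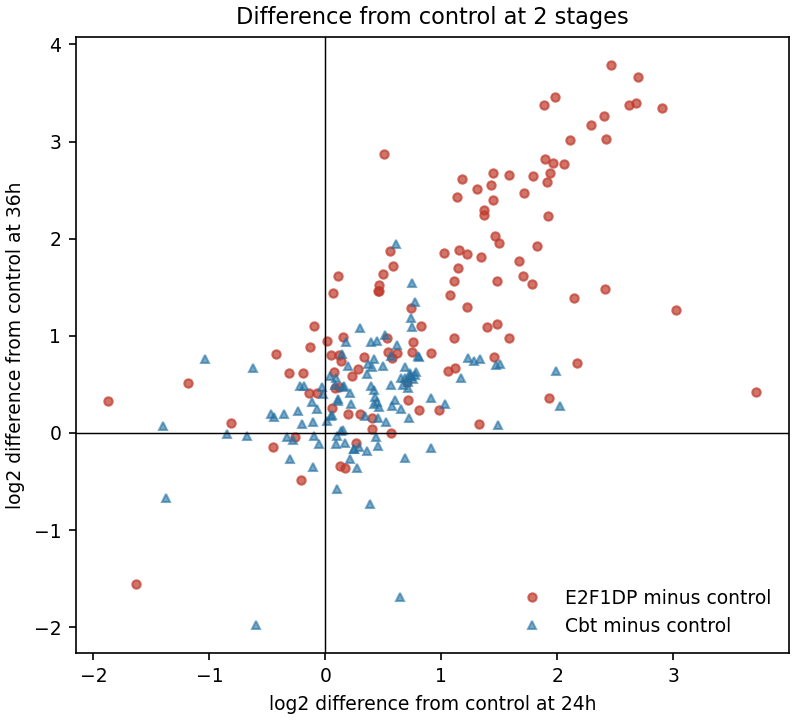
Difference in group mean log2 intensity from control wings at 24h (x axis) and at 36h (y axis), 1 point for each member and line: circles are E2F1DP minus control and triangles Cbt minus control. Of the 113 circles, 106 lie above 0 at 36h; triangles mostly lie near 0, as the selection required for at least 1 stage.

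The members furthest above control at 36h were FBtr0084975 and FBtr0070642. FBtr0084975 read 14.25, 14.19, 13.98 and 14.49 in E2F1DP wings at 36h, against 10.85, 11.76, 10.85 and 11.33 in Cbt wings and 10.43, 10.11, 10.50 and 10.71 in control wings. E2F1DP exceeded control by 3.79 there, and its E2F1DP mean was 15.08 at L3 and 14.23 at both 24h and 36h. FBtr0070642 read 12.57, 12.76, 12.96 and 12.85 in E2F1DP wings at 36h, against 9.47, 9.88, 8.71 and 9.59 in Cbt wings and 9.70, 8.68, 8.20 and 9.90 in control wings. Its pupal means in E2F1DP wings were no lower than its larval one, with means of 12.48 in larvae, 13.13 at 24h and 12.78 at 36h. FBtr0088559 gave the second largest excess at 24h, after FBtr0075621. Its arrays read 14.07, 13.31, 13.96 and 14.02 in E2F1DP wings, 10.76, 10.09, 12.27 and 10.08 in Cbt wings, and 10.22, 10.75, 10.00 and 12.31 in control wings. By 36h it had dropped in E2F1DP wings too, to 10.47, 10.85, 9.94 and 10.48, against 11.73, 9.42, 8.76 and 8.37 in Cbt wings and 10.32, 8.64, 9.42 and 8.30 in control wings.

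In all, 2 members, FBtr0075911 and FBtr0087512, were called lower than control at 24h, and FBtr0075911 was the only one called lower at 36h. FBtr0075911 read 10.37, 10.06 and 10.45 in E2F1DP wings already at L3, against 12.51, 12.19, 12.32 and 12.41 in Cbt wings and 11.64, 12.73, 12.58 and 12.08 in control wings. At 36h it read 7.59, 7.44, 7.88 and 9.01 in E2F1DP wings, 9.97, 9.35, 9.91 and 10.10 in Cbt wings, and 9.33, 10.08, 9.03 and 9.68 in control wings. It thus declined alongside the other lines from a lower start, with E2F1DP minus control at -1.97 in larvae, -1.64 at 24h and -1.55 at 36h.

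**Figure D5:**
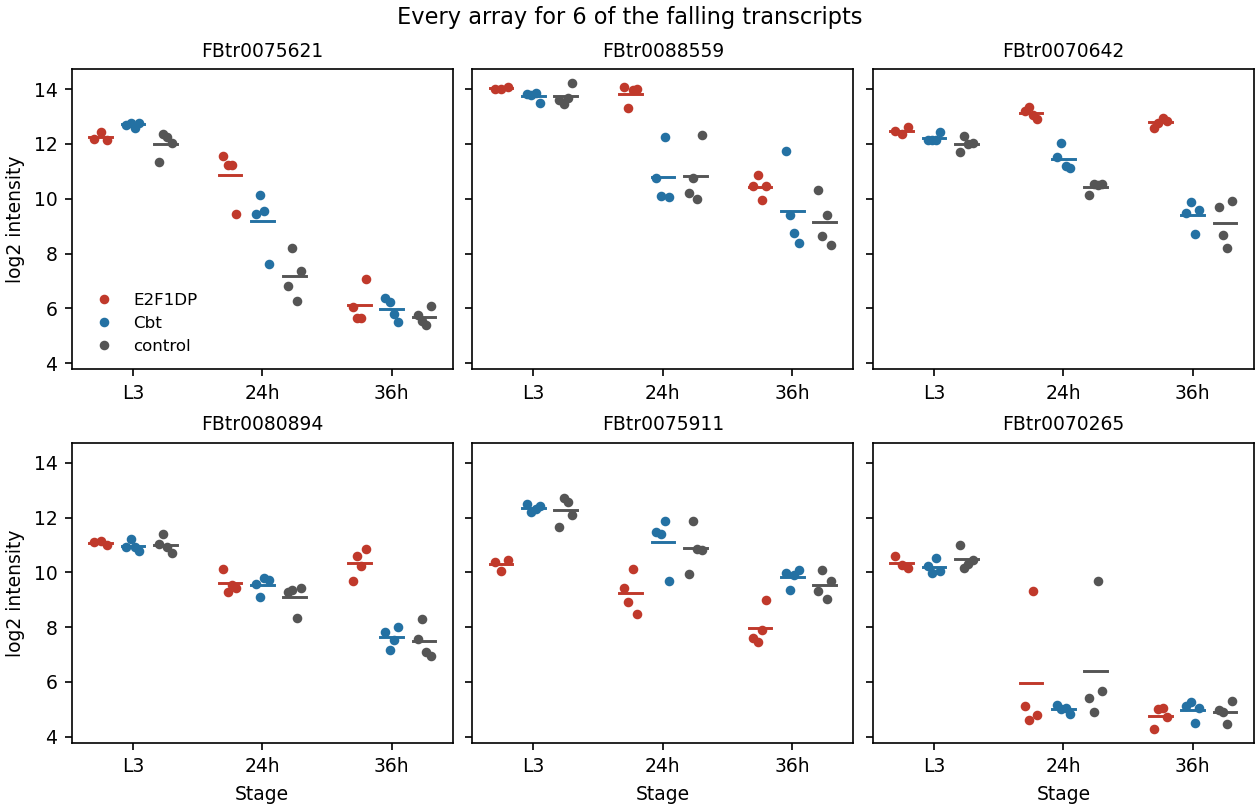
Log2 intensity on every array (points) with group means (bars) for 6 members, by stage and line. In E2F1DP wings FBtr0075621 and FBtr0088559 drop late and FBtr0070642 stays high at 36h. FBtr0080894 is lower at 24h than at L3 in these wings and lies above both other lines at 36h. FBtr0075911 is low throughout in E2F1DP wings, and FBtr0070265 has 1 high array in each of the E2F1DP and control groups at 24h.

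From L3 to 24h, E2F1DP wings had 45 members called lower, against 9.19% of all transcripts, and 0 called higher, against 8.05%. Without the 2 arrays that stood apart, 47 were called lower and 0 higher, against 7.91% and 8.62% of all transcripts. The selection used the E2F1DP arrays at L3, so this step too is given as a description. The median change was -0.67. Measured by group means, a drop of at least 1 at both steps was met by 23 members in E2F1DP wings and by 58 in Cbt wings, with all 113 in control wings fixed by the selection. Over all transcripts the same pattern was met by 0.64% in E2F1DP wings, 1.84% in Cbt wings and 1.45% in control wings. In E2F1DP wings 28 members dropped by 1 at the second step only and 22 at the first only, 13 did so over the whole span but at neither step, and 27 met none of these. Counted by single step, 45 members dropped by at least 1 at the first and 51 at the second, against 5.881% and 3.315% of all transcripts.

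Set against control wings at 24h, E2F1DP wings at 36h had a median difference of -0.29 over the members, but single members varied: 59 lay within 1 log2 unit, 26 were at least 1 higher and 28 at least 1 lower. Over all transcripts, 5.985% were at least 1 higher and 4.55% at least 1 lower. Expressed as a share of the control change from L3 to 36h, the median member covered 63.2% in E2F1DP wings (quartiles 32.1% and 77.5%) and 89.2% in Cbt wings (quartiles 76.7% and 98.2%). In E2F1DP wings 20 members covered under 25% of the control change and 33 over 75%, while in Cbt wings 0 covered under 25% and 88 over 75%. The Cbt shares are held near control by the selection. Control arrays chose the members, and the control change that divides these shares was required to be large. The E2F1DP shares and the differences from control at 24h are therefore descriptions too.

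The members without a fall of 1 log2 unit from L3 to 36h in E2F1DP wings had higher medians from the start. For 29 members the E2F1DP mean at 36h was less than 1 log2 unit below that at L3, and their median there was 13.57 in larvae, 13.37 at 24h and 12.88 at 36h. The same 29 had medians of 13.26, 12.14 and 10.68 at these stages in Cbt wings and of 13.07, 11.74 and 10.18 in control wings. For the other 84 members the medians were 11.30, 10.15 and 8.65 in E2F1DP wings, 11.36, 9.63 and 8.05 in Cbt wings, and 11.49, 9.39 and 7.76 in control wings. These classes were cut on the E2F1DP values after those were seen, and no test was made between them. Some members reached the dim end of the arrays: 11 in E2F1DP wings, 14 in Cbt wings and 19 in control wings lay under 6.20 at 36h, the level below which the dimmest 25% of all transcripts lay. At L3, 0 members lay under it in any line.

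Cbt wings were held near control wings by the selection at one or both pupal stages. At L3, where Cbt arrays played no part in the selection but control arrays did, 0 members were called different, against 0.769% of all transcripts in either direction, a share too low to set the members apart. An unadjusted p under 0.05 in limma was found for 5 members, or 4.42%, against 7.10% of all transcripts. Differences at L3 ran from -1.02 to 1.11 with a median of 0.00. At the pupal stages 81 members lay within 0.8 of control at both, 14 at 24h only and 18 at 36h only. The median difference from control was 0.38 at 24h and 0.36 at 36h, with 88 and 87 of the 113 above 0. FBtr0076075 was the single member with no drop of 1 in Cbt wings at either step or over both. Its means were 14.97, 15.11 and 14.97 in E2F1DP wings at L3, 24h and 36h, 14.65, 14.43 and 13.92 in Cbt wings, and 14.74, 13.66 and 12.57 in control wings. It was among the brightest members in every group and was named after its values were seen.

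The members did not move as copies of each other. Over the 35 single arrays, the median correlation between pairs of members was 0.80 for 6328 pairs, which the shared decline in control wings helps to fix. Only 1 pair differed by a root mean square under 0.3 log2 units, at 0.195, with a correlation of 0.989, and its IDs were 2 apart. In all, 8 members formed 4 pairs with IDs no more than 5 apart. Over the 113 members the size of the first step in control and in E2F1DP wings had a correlation of 0.63, and that of the second step 0.43 (rank correlation 0.39). These are descriptions over transcripts from the same arrays, which are not independent replicates. Of the members, 78 were read by 5 probes, or 69%, against 65.3% of all transcripts, and 35 by 4.

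Transcripts left out by the Cabut bound gave a similar count of late falls. The 107 that met every other condition and missed only that bound had 58 lower and 1 higher from 24h to 36h in E2F1DP wings, or 54.2% and 0.935%, against 6.73% and 9.18% of all transcripts. Their median change was -0.82.

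Membership itself depended on single arrays. Leaving out any 1 array of the groups used for selection gave 97 to 138 transcripts, of which 87 to 113 were members, and 46 members were kept under every such omission. Without control replicate 3 at 24h the selection gave 135 transcripts, and the 90 it shared were 66.7% of that list and 79.7% of the 113. FBtr0070265 is an example of a member with a deviating value there: it read 5.13, 4.60, 9.32 and 4.79 in E2F1DP wings at 24h and 5.39, 4.89, 9.68 and 5.68 in control wings, with the high value in replicate 3 of both. When both arrays that stood apart were removed before selection and fit, 62 of the 135 fell and 3 rose from 24h to 36h in E2F1DP wings, or 45.9% and 2.22%, against 7.51% and 7.63% of all transcripts. Of the same 135, 75 were called higher than control at 24h and 3 lower, against 11.5% and 13.9% of all transcripts, and 58 were called lower and 1 higher from L3 to 24h in E2F1DP wings, against 7.91% and 8.62%.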

How the data were processed

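Total RNA was labelled with Cy3 and read on 1-colour NimbleGen arrays. The authors deposited 1 intensity per transcript and array, obtained with RMA according to the submitters' processing notes. Its settings, version and annotation release are not given in the sources used here. A deposited table of the whole series gives these values in log2, at most 5e-09 away from log2 of the intensities. Intensities ran from 14.6 to 64595 on 35 arrays. Precision is limited by how many arrays a group had. The probe numbers per transcript come from the deposited files, where they stand as another column. Neither background levels nor detection calls were used.

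The members and lists were chosen with earlier results of these data known. Log2 values were fitted with limma 3.58.1 in R 4.3.3, with 9 group means, 26 residual degrees of freedom and Benjamini-Hochberg adjustment over 15473 transcripts; the same steps were tested on simulated data. Tables and figures were made in Python 3.11.15. Examples are the 2 largest falls and the 2 largest rises, or those nearest to a rise, in the tested comparison, and the extremes of each described difference. Alternatives were other scalings, slide number (read from file names) or replicate number in the model, the compared groups alone, array weights, removal of dim transcripts, and omission of arrays. Same-numbered E2F1DP and control arrays at 24h deviated together, with correlations of 0.306, 0.323, 0.734 and 0.457. At least 1 correlation was under 0.1 in every other comparison. Differently numbered arrays were not compared, so whether the titles' replicate numbers pair the arrays was not tested. Of the 15473 IDs, 44 appeared in the RefSeq gene table and none of them was a member.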

Additional observations from a re-analysis of the deposited data

Results flagged for a closer look

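In 8 of 96 groups of 4 arrays examined, the highest or lowest array lay further from the rest than Dixon's 95% value allows; chance gives about 5%. The median level of the members was 9.61 in replicate 4 of Cbt wings at 24h, below the other 3 arrays. FBtr0075621 was low in E2F1DP replicate 4 at 24h, at 9.45. FBtr0088559 was low in E2F1DP replicate 2 at 24h, at 13.31. FBtr0080894 was low in control replicate 3 at 24h, at 8.33. FBtr0070642 was high in Cbt replicate 4 at L3, at 12.44, and low in control replicate 1 at 24h, at 10.13. FBtr0070265 was high in replicate 3 at 24h in E2F1DP wings, at 9.32, and in control wings, at 9.68. The part of any single array in these values was not tested.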

How the results depend on the processing

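No alternative reversed a direction in the comparisons with E2F1DP. The totals of members called in either direction stayed within 1.5 times their value in each of these comparisons. For Cbt against control at L3 the median change lay near 0 and its sign was not stable. It was 0.002 as deposited, -0.005 with median centring and -0.007 with quantile normalization. Among the alternatives, the share of all transcripts called was counted only without the 2 arrays that stood apart. Under the others the counts are of members alone and were not set against all transcripts. For 36h against 24h in E2F1DP wings, 48 to 57 members were called when 1 array was left out and 46 to 81 under the other alternatives, against 58. For E2F1DP against control at 24h the counts were 56 to 68 and 52 to 74, against 66. At 36h they were 63 to 73 and 66 to 83, against 73. For 24h against L3 in E2F1DP wings they were 36 to 47 and 37 to 67, against 45. All these ranges are over the 113. In the list of 135 chosen without the 2 arrays that stood apart, 78 differed from control at 24h and 94 at 36h. Small counts in 1 direction moved more. Members called higher from 24h to 36h in E2F1DP wings numbered 0 to 2 of the 113, against 1, and 3 of the 135. Those lower than control at 24h numbered 1 to 4, against 2. Those higher from L3 to 24h in E2F1DP wings numbered 0 to 2, against 0. Cbt against control at L3 had 0 without any 1 array, and 1 with the compared groups alone and 1 with array weights. With the replicate number as a block the counts were 54, 68, 77, 46 and 0 in the same order, so it changed no count by over 1.5 times. Median centring shifted the median of all transcripts from 24h to 36h in E2F1DP wings to -0.18, against -0.03 as deposited, and that of the members to -1.04. FBtr0080894 passed with array weights (adjusted p = 0.0481), without dim transcripts (0.045) and without either of 2 arrays (0.0289 and 0.0176). Without E2F1DP replicate 2 at 24h, or replicate 1 or 4 at 36h, FBtr0087512 had adjusted p-values of 0.0694, 0.0655 and 0.0721. The causes were not tested. Removing both arrays that stood apart before selection was added after the data were seen.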
